A study of Mus musculus with 3 samples.

Results

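The sites described here are 5-methylcytosine (m5C) sites in mouse genes that still carry a provisional name, which either ends in Rik or is Gm followed by digits. They were chosen by the gene name in the deposited lists, and they made up 1229 of the 40298 distinct sites, in 472 of 8353 genes. Of these, 667 sites lay in 199 Rik genes and 562 in 273 Gm genes. RNA of wildtype C57BL/6J mice was treated with bisulfite, which turns cytosine (C) into uracil and leaves m5C as C, so that the percentage of unconverted reads at a C is its m5C level. The GV (germinal vesicle) oocytes, fully grown but not yet maturing, came from the ovaries of females of 7 to 8 weeks, 48 h after 10 IU of PMSG, a serum gonadotrophin that drives follicle growth. The MII (metaphase II) oocytes, mature and ready for fertilization, came from the oviducts 12 h after 5 IU of hCG, a chorionic gonadotrophin that triggers ovulation, in females primed with 10 IU of PMSG. The 1-cell embryos came from females of the same strain and age mated with C57BL/6J males, 24 h after 5 IU of hCG and priming with 5 IU of PMSG by the label of that library, and about 200 embryos were pooled. Each stage had 1 library, so no value below has a replicate check, and every test compares libraries and not stages. The labels describe the bisulfite conversion of the oocytes and of the embryos differently, so that a stage and its library preparation cannot be told apart. The lists hold no transcript levels, so the cell labels were not checked against marker genes.

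Rik names go back to mouse cDNA clones collected by the RIKEN institute, and Gm names to gene models predicted on the mouse genome. A full-grown oocyte stores mRNA, is largely silent in transcription from the end of its growth until after fertilization, and the early embryo lives on this store. The methyltransferases NSUN2 and NSUN6 place m5C in mRNA. NSUN2 prefers a C followed by several G at the base of a stem (Type I sites), and NSUN6 prefers CTCCA in a loop (Type II sites, taken here as CTCNA read from the site).

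A stretch of 25 bases carried a called site in the first exon of 6 of these genes, and it is shown because the largest rise from GV to MII oocytes, among sites with 50 or more reads in both libraries, lay in it (Gm11815). It was picked out after its values were seen, in a search of all called sites for windows with at most 3 mismatches to that of Gm11815, and none of the 6 genes found lay outside the Rik and Gm names. The sequences are of GRCm38, with the site and the next 4 bases in capitals. All but Gm11851 were identical over the stretch.
Gm11815, chr4:10488989-10489013, minus strand: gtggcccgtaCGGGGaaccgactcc
Gm11261, chr4:78661096-78661120, minus strand: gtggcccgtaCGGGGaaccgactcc
Gm15298, chrX:141901905-141901929, minus strand: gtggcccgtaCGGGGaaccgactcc
Gm15758, chr8:54709474-54709498, plus strand: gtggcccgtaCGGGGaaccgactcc
4930562C15Rik, chr16:4858524-4858548, plus strand: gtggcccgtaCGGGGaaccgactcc
Gm11851, chr4:17657504-17657528, minus strand: gtggcccataCGGGGaaccgactcc

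Further sites off this stretch are shown with the same capitals because the comparisons below name them. The first 7 were among the largest rises between libraries at 50 or more reads in both, and the 4 after them among the largest falls.
Gm20683, chr17:25840531-25840555, minus strand: gaagctggacCAGGAgaaagggcag
9330102E08Rik, chr6:128172053-128172077, minus strand: gtatggttatCAGGGacttggaagc
1110008F13Rik, chr2:156863219-156863243, plus strand: gcgccgagtcCCGCGgtcccagacc
Gm12130, chr11:38493357-38493381, minus strand: tgactggtgtCGGGCtgtgaaaagc
2310022B05Rik, chr8:124662913-124662937, minus strand: gccgccgatgCGGGGgacgtgcggg
Gm43769, chr5:65911778-65911802, plus strand: aggtctttctCAGGGaccaagccct
2900026A02Rik, chr5:113188329-113188353, minus strand: gcaacgagatCGGGCacgagaagtg
1700017B05Rik, chr9:57262449-57262473, minus strand: gcggctgctcCGGGTggcggccgct
9430038I01Rik, chr7:137387547-137387571, minus strand: cagactgtagCCAGGagaggctgag
Gm4981, chr10:58235764-58235788, minus strand: tacctcggtcCCGAGcatctcgtca
4931406P16Rik, chr7:34245043-34245067, minus strand: gacagaagccCCAGGgacctagaaa

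Type II sites are given below, where the capitals show the CTCNA motif. All 6 read CTCCA.
1810055G02Rik, chr19:3716722-3716746, plus strand: acagggtgacCTCCAgaactctggc
Gm839, chr6:89211538-89211562, minus strand: agagtcggacCTCCAgaagacaaag
9030624J02Rik, chr7:118838134-118838158, plus strand: acgggggagaCTCCAagttcctggc
0610009B22Rik, chr11:51685891-51685915, minus strand: acatgtggctCTCCAacaacatgta
Gm1965, chr6:89147090-89147114, plus strand: tgcacacttcCTCCAgtgtgtgcca
C330007P06Rik, chrX:36864040-36864064, minus strand: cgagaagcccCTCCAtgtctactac

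Although such names often stand for noncoding RNA, the annotation of GRCm38 (GENCODE M21) went against calling these sites largely noncoding. Genes annotated as protein coding held 770 of the 1229 sites (62.7%, 95% interval 59.9% to 65.3%), in 228 genes. Of these 770 sites, 167 (21.7%) also lay in an exon of another gene on the same strand. Long noncoding RNA genes held 316 sites (25.7%) in 152 genes, among them 178 sites in lincRNA, 84 in antisense RNA and 46 in processed transcripts. Pseudogenes, which are copies of other genes, held 112 sites (9.11%) in 72 genes. A further 17 sites lay in 7 loci of the class TEC, a holding class for loci that await experimental evidence, 7 in small RNA or other genes, and 7 in genes absent from this release. All other sites together held 92 in long noncoding RNA, so the Rik and Gm names carried most of the long noncoding sites of these lists. Some of the genes have since been named. In M21, 39 of them with 159 sites bear another symbol, such as Gm15800 (Hectd4, a ubiquitin ligase of the HECT family), 2410089E03Rik (Cplane1, needed for cilia), 1110037F02Rik (Virma, of the m6A writer complex) and 9030624J02Rik (Vps35l, of a complex that recycles membrane proteins from endosomes).

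**Figure D1:**
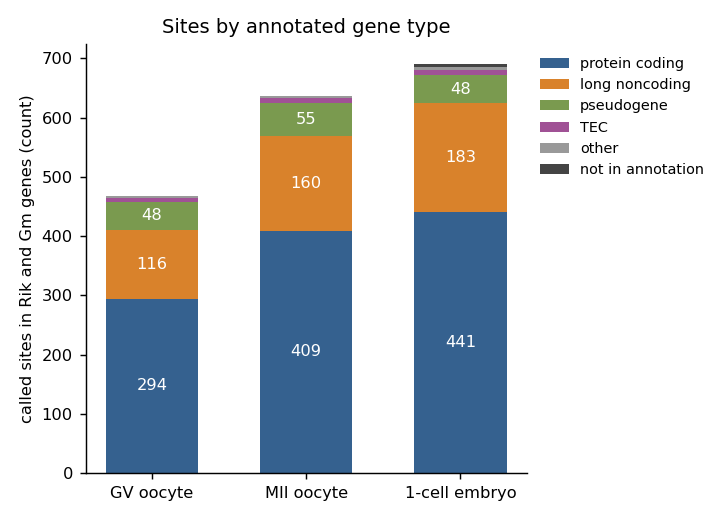
Number of called sites in Rik and Gm genes in each library, stacked by the gene type in GENCODE M21. Protein coding genes held 294, 409 and 441 sites and long noncoding RNA 116, 160 and 183 sites in GV oocytes, MII oocytes and 1-cell embryos.

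There were 468 sites in 260 genes in GV oocytes, 637 sites in 325 genes in MII oocytes and 690 sites in 309 genes in 1-cell embryos. They made up 2.94% (2.69% to 3.22%), 3.08% (2.85% to 3.32%) and 2.76% (2.56% to 2.97%) of the 15910, 20694 and 24996 sites of the lists. The number of sites was thus highest in the embryo and the number of genes in MII oocytes, and the difference in share between the lists was not tested. The intervals given for shares (Wilson) and for medians (order statistics) cover counting error at the 95% level only and not PCR copies, which no molecular identifier marked, and sites of 1 gene are not independent. With at least 100 reads required the order of the counts changed, to 212, 255 and 134 sites, because fewer embryo sites were that deep. Sites were more often alone in their gene than elsewhere, with a single site in 66.2%, 62.2% and 52.4% of the genes against 40.1%, 33.9% and 28.5% of all other genes. Their transcripts were also shorter, with a median length of the transcript around a site of 1735, 1808 and 1769 bases against 3346, 3337 and 3120 bases. Within protein coding genes, 65%, 66.0% and 68.5% of the Rik and Gm sites lay in coding sequence and 22.8%, 22.7% and 19.0% in the 3′ UTR, where the other sites had 69.2%, 69.7% and 74.4% and 18.9%, 18.2% and 14.8%.

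Coverage was lower at the Rik and Gm sites than at all others in each library. The median number of reads was 84 (quartiles 40 and 184.2) in GV oocytes, 76 (41 and 181) in MII oocytes and 51 (33 and 85) in 1-cell embryos, against 123, 108 and 59 at all other sites. Under 50 reads lay 31.8%, 32.7% and 48.7% of the Rik and Gm sites and 20.0%, 22.6% and 40.8% of the others. In GV oocytes the long noncoding sites had a median of 55 reads, pseudogene sites 63 and protein coding ones 105.5. In 1-cell embryos the medians were 51, 46.5 and 52 reads.

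The median level was 21.4% (19.5% to 22.7%) in GV oocytes, 20.0% (18.9% to 21.4%) in MII oocytes and 25.5% (23.5% to 27.8%) in 1-cell embryos. All other sites had medians of 19.4%, 19.8% and 23.8%. Every listed site has at least 5 unconverted reads, so the lowest level that can be listed is higher at a shallow site. At 50 reads or more the Rik and Gm medians were 17.7%, 17.8% and 18.9% and those of the others 18.3%, 18.6% and 18.1%. The GV median then lay below that of the other sites, and the embryo stood less far above the oocytes. With at least 100 reads the Rik and Gm medians were 18.7%, 18.4% and 16.8%. The embryo was then the lowest, with intervals that overlapped. A level of 50% or more was found at 12.8%, 13.8% and 19.0% of the Rik and Gm sites, against 11%, 11.8% and 16.6% of the others. Wholly unconverted sites numbered 0 of 468, 1 of 637 and 21 of 690, and these counts were not set against those of the other sites. At their GV and MII levels the long noncoding sites (23.1% and 23.8%) stood above the protein coding ones (19.6% and 18.8%), and at 50 reads or more the medians were 20.0% and 20.4% against 17.4% and 16.6%, with intervals that overlapped.

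Of all Rik and Gm sites, 53 were Type II. By library they were 28 in GV oocytes (5.98%, 4.17% to 8.51%), 38 in MII oocytes (5.97%, 4.38% to 8.08%) and 25 in 1-cell embryos (3.62%, 2.47% to 5.29%), against 5.91%, 5.00% and 3.44% of all other sites. Among every C of the transcripts that held a Rik or Gm site, 1.71% stood in the motif. Type II sites had higher median levels than Type I sites, with 41.8% (24.0% to 50.3%) against 20.2% in GV oocytes, 32.8% (20.8% to 56.8%) against 19.9% in MII oocytes and 39.7% (17.2% to 63.0%) against 25.4% in 1-cell embryos. In the embryo the Type II interval included the Type I median, and the difference between the types was not tested. The Type II medians of all other genes were 21.3%, 21.6% and 24.6%, outside the Rik and Gm interval in GV oocytes only. Type I sites were followed by a mean of 2.20, 2.16 and 1.97 G in the next 4 bases, where all C of the same transcripts had 0.896. The second base after a Type I site was G in 65.9%, 66.8% and 64.5%. These shares were close to those of all other Type I sites (69.0%, 68.4% and 61.1%). In folded windows with 50 bases on each side of the site, 60.3% (57.5% to 63.2%) of the Type I sites were paired and 37.3% (25.3% to 51%) of the Type II sites. Over both types the share was 59.3%, against 59.1% at all other sites.

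The gene background is the rate of unconverted reads of a gene that the deposited p-value of its sites implies. Its median over genes was 0.282%, 0.375% and 0.395% in the order of the stages, against 0.263%, 0.367% and 0.353% for all other genes. The listed sites had passed a filter on gene background, so low rates were set in part by the calling. Sites with a p-value of 1e-300 or less were left out here. A rate over 2% was found for 1 of 245, 4 of 314 and 4 of 306 Rik and Gm genes, all of them Gm. Among all other genes it was found for 11 of 5622, 37 of 6247 and 21 of 6073.

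Many Gm sites, and few Rik sites, lay in sequence that belongs to more than 1 gene. After conversion of every C to T, the 51 bases centred on the site occurred in a transcript of another gene for 290 of the 1209 sites that could be searched (24.0%). The share was 47.2% for Gm names and 4.70% for Rik names, and it was 58.3% in pseudogenes, 25% in protein coding genes and 8.68% in long noncoding RNA, against 3.30% at all other sites. An exon of another gene on the same strand covered 177 sites (14.4%, against 1.03%), of which 168 had Gm names. For 79 sites (6.43%, against 3.12%) an exon of another gene lay on the opposite strand. In all, 303 sites (24.7%) had a window match or a same-strand neighbour, and for these the deposited gene name is 1 of several that could own the reads.

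Where the other gene also had a called site in the same converted window, the levels could be set side by side. This was so for 68 Rik and Gm sites in 47 groups, and 42 of the sites had a partner outside these names. With such a partner called in the same library there were 63 pairs, from 40 Rik and Gm sites. A site counted once for each library and partner, so the pairs are not independent, which the interval does not allow for. In these pairs the Rik or Gm site differed from its partner by a median of 0.811 percentage points (-0.86 to 3.03), and the size of the difference had a median of 5.18 points and a maximum of 20.8 points. The partner was the deeper of the pair in 46 of them. 5830417I10Rik, an unprocessed pseudogene whose windows match Gon4l, a regulator of transcription, held 8 sites in each oocyte list and was second in GV oocytes. For 5 of its sites, in 4 converted windows, Gon4l was called too. At chr3:88817091 the pseudogene had 37.4% in GV oocytes and 31.2% in MII oocytes, and the Gon4l site of the same window had 30.8% and 39.3%. The differences over these sites ran from -6.15 to 6.62 points in GV oocytes, and in MII oocytes the pseudogene was the lower of the pair at each, by up to 14.7 points. Gm12350, a processed pseudogene whose window matches the mitochondrial protein gene Chchd2, had 18.7% and 21.8% at chr4:34486251 in GV and MII oocytes where Chchd2 had 18.6% and 16.0%. Gm12463, which matches Aurkc, a kinase of meiotic chromosomes, had 48.0% of 25 reads and 65.2% of 23 in the same libraries, where Aurkc had 49.1% of 1533 reads and 55.1% of 1550. The widest gap was that of Gm20563, with 25% of 24 reads in MII oocytes, and Selenok, with 45.8% of 522. At the pseudogene Gm3089 the levels were 27.4%, 43.1% and 49.5% over the stages, at its relative AA792892 they were 27.3%, 42.2% and 57.9%, and at a second relative, C87414, 15.8%, 30.9% and 58.4%. Which locus gave the reads was not tested.

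**Figure D2:**
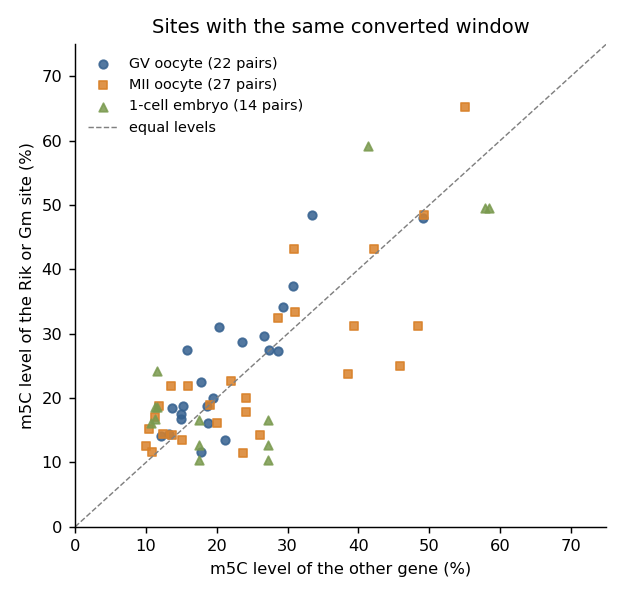
Level of a Rik or Gm site (vertical axis, %) against the level of a called site of another gene with the same converted window in the same library (horizontal axis, %), with 22 pairs in GV oocytes, 27 in MII oocytes and 14 in 1-cell embryos. The dashed line marks equal levels, and the pairs lie on both sides of it, by at most 20.8 percentage points.

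In the stretch shared by 6 genes the levels differed between genes. In GV oocytes the site stood at 26.6% of 214 reads in Gm11815, 30.5% of 993 in 4930562C15Rik, 41.9% of 2329 in Gm15758, 55.0% of 1599 in Gm11261, 57.5% of 497 in Gm15298 and 65.1% of 361 in Gm11851. In MII oocytes the levels in the same order were 80.0%, 37.0%, 63.8%, 80.7%, 82.1% and 86.0%. In 1-cell embryos the site was not listed for Gm11815, and the other genes had 21.6%, 73.8%, 92.1%, 75% and 78.8%. The site of 4930562C15Rik, a protein coding gene in whose coding sequence the annotation places the stretch, was thus the lowest in MII oocytes and the embryo, with intervals (32.8% to 41.5% and 14.7% to 30.5%) that none of the long noncoding genes touched. The 5 long noncoding genes were all higher in MII than in GV oocytes, with exact adjusted p of 6.36e-11 for Gm11815, 3.49e-23 for Gm15758, 9.31e-31 for Gm11261, 3.44e-09 for Gm15298 and 4.09e-07 for Gm11851 (Fisher's exact test on the reads, Benjamini-Hochberg over all shared sites). From MII oocytes to the embryo Gm11261 and Gm15758 were higher again (exact adjusted p = 0.00365 and 0.0171), the differences at Gm15298 (-7.06 points) and Gm11851 (-7.19 points) did not pass, and 4930562C15Rik was lower by the same test (exact adjusted p = 0.00662). The test was also run with the reads divided by 5, a guard against PCR copies. The rises of Gm11815 and Gm11851 to MII oocytes then did not pass (exact adjusted p = 0.132 and 0.669). Nor did the fall of 4930562C15Rik (exact adjusted p = 0.507). Results of that guard for the other genes of the stretch are not given here. A second C, 16 bases further on, was called in 5 of the 6 genes and was lower throughout, at 12.6%, 13.0% and 20.0% in GV oocytes and 26.0%, 34.2% and 35.3% in MII oocytes for Gm11261, Gm15298 and Gm11851. The sites of 4930562C15Rik, Gm11261, Gm11815 and Gm15298 share the same converted 51 bases. These bases also occur in transcripts of AC141429.2 and of Xdh, a gene outside the Rik and Gm names. Which of these loci gave the reads, and with it the contrast between the levels, was not tested.

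**Figure D3:**
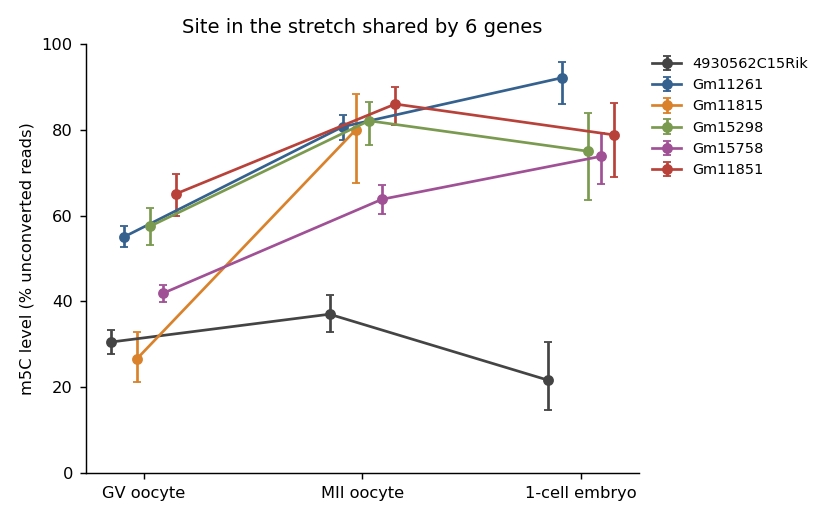
Level of the site in the shared stretch (vertical axis, % unconverted reads) in the 3 libraries for each of the 6 genes, with 95% Wilson intervals of the reads as bars. The 5 long noncoding genes lie between 63.8% and 86.0% in MII oocytes, while 4930562C15Rik lies at 37.0%, and Gm11815 was not listed in the embryo.

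Between GV and MII oocytes, the level rose at most of the Rik and Gm sites listed in both libraries. Both lists held 345 of the sites, 73.7% (69.5% to 77.5%) of the GV and 54.2% of the MII sites, while for all other sites the shares were 81.7% and 62.9%. The level was higher in MII oocytes at 263 of the 345 sites (76.2%, against 77.0% of all other sites). The median difference was 5.15 percentage points (4.29 to 6.45), against 4.87 (4.71 to 5.02) at all other sites. Under the test named above, 71 sites (20.6%) were higher in MII oocytes, where the share over all shared sites was 19.6%, and 2 were lower (0.580%, against 0.965%). With the reads divided by 5, a guard against PCR copies, 4 were higher (1.16%, against 0.672% over all shared sites) and 0 lower (against 0.0232%).

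Among sites with 50 or more reads in both libraries, the largest rises after Gm11815 were in genes of several kinds. Gm43769, a TEC locus, had 12.0% of 150 reads and then 46.2% of 65 reads, a difference of 34.2 points (exact adjusted p = 5.33e-06), and stood at 47.8% in the embryo. 6430548M08Rik, in its 3′ UTR, had 16.0% of 94 reads and then 45.3% of 86 reads (exact adjusted p = 0.000315). The coding site of 2900026A02Rik stood at 33.6% of 256 reads and then at 62.6% of 171 reads (exact adjusted p = 1.92e-07) and had 79.1% of 43 reads in the embryo. 4930432K21Rik had a site in its 5′ UTR that went from 58.8% to 87.5% (exact adjusted p = 0.000255). With the reads divided by 5, none of these 5 rises passed (exact adjusted p from 0.132 for Gm11815 to 1). The 2 sites that were lower were 1700017B05Rik, with 64.0% of 50 reads and then 38.2% of 76 (exact adjusted p = 0.0337), and Gm8730, with 28.7% of 501 and then 18.9% of 486 (exact adjusted p = 0.00341). Gm8730 is a processed pseudogene whose window matches Rplp0, a protein of the ribosomal stalk, and the Rplp0 site of the same window had 23.6% and 19.0%.

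Among the Rik and Gm sites, the long noncoding ones had the larger median difference at this step. Their median was 9.28 points (6.02 to 15.3) over 80 shared sites, while the protein coding Rik and Gm sites had 4.37 (2.92 to 5.25) over 229. Long noncoding sites outside these names had 3.69 (-2.57 to 13.7) over 21 shared sites. At 50 or more reads in both libraries the Rik and Gm medians were 9.15 (5.19 to 13.4) in long noncoding and 4.48 (3.46 to 5.25) in protein coding sites, with intervals that overlapped. Of the long noncoding sites 24 were called higher (30.0%, 21.1% to 40.8%) and of the protein coding ones 41 (17.9%, 13.5% to 23.4%). The share over all shared sites was 19.6%. Without the long noncoding sites that had a window match, the median was 7.64 (4.73 to 10.6), which overlapped the protein coding interval, and without the genes of the shared stretch it was 8.07 (4.86 to 12.0). Their coverage was lower too, with medians of 75 and 58.5 reads against 126 and 102. The difference between the classes was not tested.

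From MII oocytes to 1-cell embryos the level again rose at most of the Rik and Gm sites listed in both libraries. The lists shared 214 of the sites, 33.6% (30.0% to 37.4%) of the MII and 31% (27.7% to 34.6%) of the embryo sites, against 38.9% and 32.1% for the others. The level was higher in the embryo at 171 of the 214 sites (79.9%, against 83.9% of all other sites). The median difference was 11.7 points (8.23 to 15.3), where all other sites had 12.8 (12.3 to 13.2). Higher in the embryo were 111 sites (51.9%, against 51.3% over all shared sites), and 4 were lower (1.87%, against 2.45%). At 50 or more reads in both libraries the median difference was 8.19 points, and with the reads divided by 5, 14 sites were higher (6.54%, against 7.2% over all shared sites) and 0 lower (against 0.0624%). Here the protein coding sites had the larger median, 13.8 points (8.78 to 19.0) against 8.23 (2.56 to 15.3) in long noncoding RNA, with intervals that overlapped. Pseudogenes had 8 shared sites with a median of 0.75 points (-16.6 to 32.5).

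Of the 5 largest rises at this step among sites with 50 or more reads in both libraries, 4 ended at a wholly or nearly unconverted site. Gm20683, whose site lies in an exon it shares with Rhot2, a GTPase of the outer mitochondrial membrane, had 22.7% of 242 reads in GV oocytes, 33.5% of 173 in MII oocytes and 100% of 56 in the embryo (exact adjusted p = 8.87e-20 for the second step). The lincRNA 9330102E08Rik, not listed in GV oocytes, had 27.1% of 262 reads and then 93.1% of 131 (exact adjusted p = 3.06e-36). 1110008F13Rik (Rab5if in M21, whose product binds the endosomal GTPase Rab5) had a 5′ UTR site at 26.0% of 204 reads, 31.9% of 210 and 94.5% of 73 (exact adjusted p = 2.19e-20). In the lincRNA Gm12130 the levels were 40.1% of 157 reads, 44.9% of 107 and 100% of 53 (exact adjusted p = 5.54e-13). 2310022B05Rik had a coding site at 18.8%, 15.8% and 68.9% (exact adjusted p = 1.46e-10). Of these 5, only 2310022B05Rik missed the threshold when the reads were divided by 5 (exact adjusted p = 0.069).

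The 4 sites that were lower in the embryo all lay in protein coding genes. At 9430038I01Rik the level was 24.1% of 249 reads, 40.7% of 236 and 17.7% of 79, a rise at the first step (exact adjusted p = 0.00124) and a fall at the second (exact adjusted p = 0.000654). Gm4981, a gene with a single exon, held near its level in the oocytes, 57.5% and 55.1%, and had 32.4% of 74 reads in the embryo (exact adjusted p = 0.00529). The site of 4931406P16Rik in exon 10 had 14.1%, 21.4% and 10.4% (exact adjusted p = 0.0162 for the rise and 0.00837 for the fall), and the fourth was 4930562C15Rik. None of the 4 passed with the reads divided by 5 (exact adjusted p from 0.43 to 0.624).

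Over both steps the difference was larger than over either. GV oocytes and the embryo shared 160 of the sites, 34.2% (30.0% to 38.6%) of the GV list, with a median difference of 21.1 points (18.1 to 23.6), against 19.1 (18.7 to 19.7) at all other sites. Higher were 106 sites (66.2%, against 66.1% over all shared sites) and lower 1, Gm4981 (0.625%, against 1.05%). The medians were 21.1 points in protein coding and 21.2 in long noncoding sites. Among sites with 50 or more reads in both libraries, the largest rises were those of Gm20683 (77.3 points), 1110008F13Rik (68.5) and Gm12130 (59.9), followed by that of Gm27021. Gm27021, which shares an exon with Emc8 of the membrane insertion complex of the endoplasmic reticulum, had 29.9% of 685 reads, 46.9% of 697 and 88.8% of 134 (exact adjusted p = 1.85e-36). With the reads divided by 5, 36 sites were higher (22.5%, against 21% over all shared sites) and 0 lower (against 0.0772%).

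**Figure D4:**
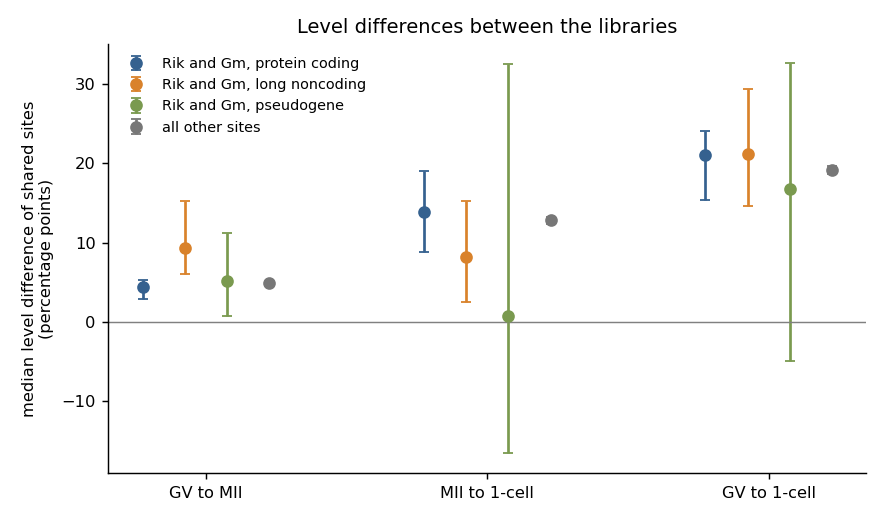
Median level difference of shared sites (vertical axis, percentage points) between each pair of libraries for protein coding, long noncoding and pseudogene Rik and Gm sites and for all other sites, with 95% order-statistic intervals as bars. Between GV and MII oocytes the long noncoding median is 9.28 and the protein coding one 4.37, and from GV oocytes to the embryo they are 21.2 and 21.1.

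The course over all stages could be followed at 153 sites of 117 genes. They were 12.4% (10.7% to 14.4%) of the Rik and Gm sites, while 15.3% of all other sites were called at every stage. Their median level was 23.3% (19.6% to 27.9%), then 33.1% (27.1% to 37.9%), then 49.8% (43.6% to 56.7%), and a level of 50% or more was reached by 30, 43 and 76 of them. Of the 5992 other sites called throughout, 795, 1216 and 2694 reached that level, and their medians were 21.6%, 28.0% and 45.5%. Both steps were rises at 97 sites (63.4%, 55.5% to 70.6%), against 67.5% (66.3% to 68.7%) of the other sites called throughout. The level rose and then fell at 33 of the 153, fell and then rose at 19 and fell at both steps at 4. Of the 5992 other sites, 1002, 829 and 108 took these courses. Of the 40 long noncoding sites among them 26 rose at both steps and 0 fell at both, and of the 103 protein coding sites 65 rose and 4 fell at both.

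**Figure D5:**
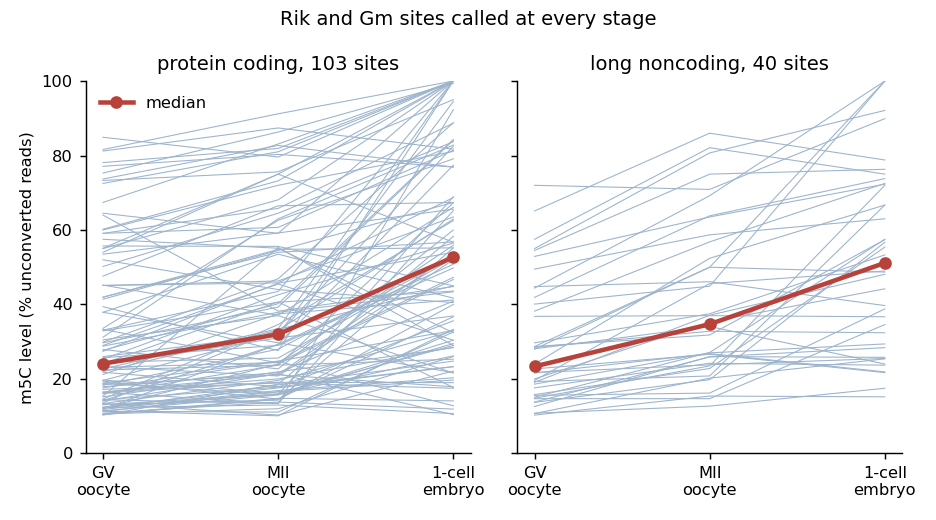
Levels (vertical axis, % unconverted reads) of the Rik and Gm sites called in all 3 libraries, 1 thin line for each of 103 protein coding and 40 long noncoding sites, with the median as a thick line. The protein coding median goes from 24.1% over 32.0% to 52.7%, and the long noncoding one from 23.4% over 34.7% to 51.2%.

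The deepest of these sites gave the narrowest intervals. The coding site of E330034G19Rik at chr14:24306896 had 15.2% (14.4% to 16.0%) of 7688 reads, 21.9% (21% to 22.8%) of 7840 and 28.4% (27.0% to 29.8%) of 3976. Gm15698 (Elobl in M21, named for its likeness to elongin B) had 16.4%, 20.0% and 28.5% at 11574, 7430 and 1208 reads, and its window also occurs in 2210409E12Rik. Both rose at each step under Fisher's exact test (exact adjusted p from 1.5e-24 to 9.64e-09). With the reads divided by 5, E330034G19Rik still passed at both (exact adjusted p = 0.000753 and 0.0156) and Gm15698 at neither (0.268 and 0.0522). 2010107G23Rik (Fam241b in M21) held 2 deep sites. The coding one had 25.7%, 29.0% and 49.8%, where the first step did not pass (exact adjusted p = 0.125) and the second did (exact adjusted p = 3.28e-23), and the one in the 5′ UTR had 28.8%, 37.9% and 43.4%, where both passed (exact adjusted p = 0.000165 and 0.0386). That gene lies opposite Neurog3. At Gm13103 the levels were 23.8%, 31% and 36.9%, and both steps passed (exact adjusted p = 1.42e-05 and 0.0135). With the reads divided by 5, neither step passed for it (exact adjusted p = 0.776 and 0.509) or for the 5′ UTR site of 2010107G23Rik (exact adjusted p = 0.969 and 0.662).

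Some sites were near the upper end from the start, and others reached it in a later library. At 1700066M21Rik a coding site had 81.2% of 160 reads, 87.4% of 127 and 81.7% of 71, and no difference between its libraries passed (exact adjusted p from 0.394 to 1). Gm20605, which shares an exon with Lrch4, had 81.6% of 413 reads, 91.2% of 410 and 100% of 71. 4921524J17Rik had a 3′ UTR site at 75.3% of 449 reads, 86.3% of 438 and 99.4% of 165, and 1500011B03Rik one at 67.4% of 221 reads, 83.1% of 242 and 100% of 196, the deepest wholly unconverted Rik or Gm site. Gm16933, a lincRNA on the strand opposite Htra4, went from 44.4% of 63 reads over 69.2% of 52 to 100% of 77. At these last 4 genes each step passed (exact adjusted p from 8.48e-11 to 0.0443), and with the reads divided by 5 none did (exact adjusted p from 0.0793 to 1). Also above 80% in GV oocytes were the 3′ UTR sites of 6430548M08Rik at chr8:120162040 (88.5% of 52 reads) and of Gm21983, in an exon shared with Rab4b (84.9%, then 79.6% and 100%). So was a site of Gm904 (84.9%, then 87.5% in MII oocytes) that lay in no annotated exon of that gene.

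Of the 6 Type II sites printed above, 2 had a difference that passed the test. Gm1965, a lincRNA, had 44.8% of 404 reads, 46.1% of 369 and 39.7% of 136, and none of its differences passed (exact adjusted p from 0.312 to 0.931). Gm839, another lincRNA of chromosome 6, had 10.5% of 400 reads in MII oocytes and 13.9% of 237 in the embryo (exact adjusted p = 0.288), and 9030624J02Rik (Vps35l) had 16.5% of 565 and 20.5% of 200 (exact adjusted p = 0.277). In 0610009B22Rik the levels were 19.7%, 16.2% and 29.0%, and the second step passed (exact adjusted p = 0.00304). C330007P06Rik had 19.7% and 15.3% in the oocytes and was not listed in the embryo. The other was 1810055G02Rik, with 78.1% of 151 reads, 81.9% of 188 and 100% of 54 (exact adjusted p = 0.000635 for the second step). With the reads divided by 5, neither call held (exact adjusted p = 0.502 for 0610009B22Rik and 0.658 for 1810055G02Rik). Whether Type II sites as a class moved less than Type I sites was not tested.

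Most Rik and Gm sites, like most sites of the lists, were listed at 1 stage only. Of the 1229 sites, 469 (38.2%, against 41.3% of all sites) were listed in the embryo alone, 231 (18.8%, against 14.6%) in MII oocytes alone, 116 (9.44%, against 6.51%) in GV oocytes alone and 192 (15.6%, against 16.9%) in both oocytes but not in the embryo. A site that is missing from a list can be unmethylated, below 10% or 5 unconverted reads, or covered by fewer than 20 reads. Of the embryo-only sites 67.4% (63.0% to 71.5%) lay in genes with a site in an oocyte list, against 89.0% (88.6% to 89.5%) elsewhere, and the share was 74.2% for Rik and 59.7% for Gm names. In all, 107 of the 472 genes (22.7%, 19.1% to 26.7%) had sites in the embryo alone, where 13.1% of all other genes did, and 154 (32.6%) had a site at every stage, where 55.2% did. How far the fewer sites per gene and the lower coverage account for these shares was not tested.

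Genes with many sites changed rank between the stages. Gm15800 (Hectd4), on chromosome 5, led both oocyte lists with 15 and 18 sites but had 3 in the embryo, at a median coverage of 125, 75 and 55 reads, and 21 of its 24 distinct sites lay in coding sequence. The reverse held for 2900026A02Rik, with 5, 11 and 17 sites, and for 2700049A03Rik, with 4, 4 and 13 sites that all lay in coding sequence and had medians of 11.9%, 17.1% and 14%. 4931406P16Rik had 6, 11 and 16 sites, E330009J07Rik 4, 4 and 11, of which 8 of 12 distinct ones were in the 3′ UTR, and 1700017B05Rik 3, 2 and 10. 2410089E03Rik (Cplane1) had 7, 11 and 1, while D630045J12Rik had 7, 7 and 8, with 2 of its 16 distinct sites called at every stage. 5031439G07Rik had 7, 5 and 2 sites. Gm28043, with 7, 8 and 2, shares all 11 of its distinct sites with exons of Rnf8, Cmtr1 or Gm28052.

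Genes with sites at 1 stage only were ranked by their number of sites. In the embryo they were led by Gm7789, a pseudogene with 5 sites whose windows all occur in Aurkc or in other pseudogenes, by 2810403A07Rik (Khdc4, a splicing protein with KH domains), with 5 sites from 12.2% to 65%, and by 1110038F14Rik, with 4 coding sites between 15.2% and 21.8% at 82 to 92 reads each. In GV oocytes they were 2410131K14Rik, Gm13127 (whose windows match Mcrs1) and Gm10012, and in MII oocytes Gm12784, Gm5617 and Gm6264, with 2 sites each.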

How the data were processed

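The deposited lists of called m5C sites in GV oocytes, MII oocytes and 1-cell embryos (1 library each) were used. Per the submitters' notes and the methods, the authors used cutadapt 1.13 and Trimmomatic 0.36 for trimming, HISAT2 2.10 for alignment to converted GRCm38 and Bowtie2 2.2.9 for what was left, against converted transcripts, and the sites had passed filters on quality, coverage, level and gene background. The coverage was deposited as a count of reads at the site, and the m5C level was deposited as a fraction of unconverted reads, given here in percent. The p-value deposited with each site is one-sided and binomial, and it sets the unconverted reads against the rate of the gene. Every listed site had at least 20 reads, a level of 10% and 5 unconverted reads. The labels name polyadenylated RNA and doses that differ in part from the methods of the study, and which holds is not settled.

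Members were sites whose gene name ends in Rik or is Gm and digits. The members and lists were chosen with earlier results of these data known. Gene types, exons and spliced sequence came from GENCODE M21 by Ensembl identifier, positions were checked against GRCm38 RefSeq sequence (all 1229 were C), and sequences were printed where the 25 bases are unbroken in the genome. Unconverted reads were the level times the coverage (whole to within 2.9e-05). Shared sites were compared by two-sided Fisher's exact test with Benjamini-Hochberg adjustment over all sites shared by the pair, threshold 0.05. The test, the median interval and the background rate were tested on simulated data. Named sites were, by rule, the 5 largest rises and falls per pair with 50 reads in both, the 5 deepest at every stage, the 5 highest per stage with 50 reads, the 5 deepest Type II sites, and the 5 genes with most sites per stage and 3 per stage with sites at no other. One site that this rule names is not reported here. The shared stretch, the copies and the long noncoding medians without them were added after the values were seen. PCR copies were not marked, so intervals cover counting error only. Alternatives were coverage minima of 50 and 100 reads, a level minimum of 20%, reads divided by 5, CTCCA alone, a window of 31 bases, and leaving out sites with a same-strand neighbour, with a window match or in protein coding genes. Tools were RNAfold 2.7.2 (37 °C), samtools 1.23.1, scipy 1.17.1 on Python 3.11.15, pandas 2.3.3 with numpy 2.4.6, matplotlib 3.10.9 and pysam 0.24.0.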

Additional observations from a re-analysis of the deposited data

How the results depend on the processing

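With 1 library per stage, no difference has a replicate check, and a stage and its library cannot be told apart. The lists hold called sites alone, so depth limits which sites appear. No paired analysis was possible because each stage has 1 library and the labels number none. Over 183 comparisons of a value with its alternatives, 100 kept it and 83 moved it. No median difference at shared sites turned its direction, but the order of the list medians changed. At 100 reads the embryo had the fewest sites and the lowest median level. At 50 reads the GV median lay below that of MII oocytes and below that of the other sites.

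A coverage minimum of 100 reads left 212, 255 and 134 sites in 129, 133 and 75 genes (GV oocyte, MII oocyte, 1-cell embryo), 2.35%, 2.36% and 2.14% of the lists, with median levels of 18.7%, 18.4% and 16.8% and a mean of 2.05 G after embryo Type I sites. It left 157 sites shared by the oocytes, 63 by the MII oocyte and embryo and 43 by the GV oocyte and embryo, median differences of 6.53 points to the embryo from MII and 14.6 from GV, 33 and 34 sites higher in the embryo than in MII and GV, and 1, 2 and 0 lower (GV to MII, MII to embryo, GV to embryo). Both steps were then rises at 73.8% of the sites called throughout. A minimum of 50 reads left 213 genes in the MII oocyte and 171 genes and 354 sites in the embryo, shares of 2.52%, 2.69% and 2.40%, medians of 17.7%, 17.8% and 18.9%, 127 and 90 sites shared by the embryo with MII and GV, a median difference of 8.19 points from MII to the embryo, and 64 and 66 sites higher in the embryo.

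A level minimum of 20% left 248, 325 and 438 sites with medians of 31%, 33.1% and 37.0%, which rise by construction, and a Type II share of 9.27% in the GV oocyte. Dividing reads by 5, which cuts the power of the test by construction, left 4 of 71 sites higher from GV to MII, 14 of 111 from MII to the embryo and 36 of 106 from GV to the embryo, with 0, 0 and 0 lower. The 31-base window matched another gene at 26.6%.

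Without protein coding genes there were 174, 228 and 249 sites in 127, 154 and 137 genes, 1.09%, 1.10% and 0.996% of the lists, with medians of 23.1% and 22.8% in the oocytes and 2.06 G after Type I sites in each oocyte list. The pairs then shared 116, 74 and 52 sites (GV and MII, MII and embryo, GV and embryo), with median differences of 8.38 and 7.35 points at the first 2 steps, 30, 28 and 35 sites higher and 1, 0 and 0 lower. Leaving out sites in an exon of another gene on the same strand gave shares of 2.51%, 2.60% and 2.32%. Leaving out window matches gave 2.21%, 2.34% and 2.08%, and 1 site lower in MII than in GV.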
